A study of Mus musculus with 8 samples.

Results

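Bergmann glia and other astrocytes of the cerebellum were followed here through 35 of the genes that mark them, among 20352 genes measured on the same arrays. Probe sets entered where their annotation names 1 of the 35 symbols alone, or an older synonym of it, and all 35 genes were measured, with 326 probe sets between them. The animals were 28-day-old mice of a mixed Swiss Webster (CD-1) background, 4 labelled wild-type and 4 labelled Cic-L-null, and each cerebellum gave 1 array of the Affymetrix Mouse Gene 1.0 ST design. Capicua (Cic) is a DNA-binding repressor of genes downstream of receptor tyrosine kinases and a partner of ataxin-1. The labels give no construction of the mutant allele and no cell type in which it acts, and all 8 animals share the background. Values are log2 expression values after RMA, a method that corrects background, equalises the distributions of the arrays and summarises probes. The gene value is the mean over the probe sets of that gene, and every difference is Cic-L-null minus wild-type on the log2 scale.

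Bergmann glia are the radial astrocytes of the cerebellar cortex. Their cell bodies lie beside Purkinje cells, their fibres guide migrating granule cells in development, and in the adult they wrap the synapses of Purkinje cells, where they take up glutamate and buffer potassium and water. Velate astrocytes of the granular layer and fibrous astrocytes of the white matter share most of their genes. The 35 genes were sorted by role into 6 of radial glia, 11 of transport and coupling, 8 of reactive or secreted products, 7 of metabolism and 3 of signalling.

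The genes that define these cells were detected. The upper 5% of 985 olfactory receptor genes, which cerebellum hardly uses, began at a log2 value of 6.21, taken here as the limit of dim genes. All 35 genes had a wild-type mean above it, from 6.41 to 12.07, and 34 lay above it on all 8 arrays. The exception was Nes, with 6.12 in wild-type replicate 3. Levels of different genes are not set against each other, since probes differ in how they bind.

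Cic itself averaged 8.78 ± 0.28 in wild-type animals (SD, n = 4), with a mutant mean of 7.54 ± 0.061 (SD, n = 4). The median value per array lay between 7.82 and 7.88. Wild-type replicate 1 alone carries a label of Trizol extraction with RNeasy cleanup. Both sexes occur in both groups by Y-linked and Xist signal, but not in the same proportions. The mean log2 level of 4 sex-linked genes was 8.16, 6.03, 6.08 and 8.23 in wild-type replicates 1 to 4. In Cic-L-null replicates 1 to 4 it was 8.13, 8.17, 6.06 and 8.27, so replicate 3 was the only mutant at the lower level. Between the groups these 4 genes differed by -1.43 to 1.44, 3 upwards and 1 downwards. Their mean blends opposite directions and does not by itself name the sex of a level. The number of animals, not depth, limits the precision of arrays.

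None of the 35 genes passed the threshold over all genes, an adjusted p under 0.05 with limma and Benjamini-Hochberg adjustment, which 28 of 20352 genes (0.138%) passed, 18 higher (0.0884%) and 10 lower (0.0491%). At an unadjusted p under 0.05 there were 11 of the 35 (31.4%), where the share over all genes was 9.26% and over the 14010 genes above the dim limit 10.3%. They divided into 4 higher in mutants (4.56% of all genes) and 7 lower (4.7% of all genes). The 4 mutant values lay wholly on one side of the 4 wild-type values for 9 of the 35 genes (25.7%), against 5.94% of all genes and 7.33% of those above the dim limit. Of the 9, 4 were higher (3.02% of all genes and 4.02% of those above the limit) and 5 lower (2.91% and 3.31%). Any gene without overlap gives 0.0286 in the exact two-sided permutation test over the arrays, the smallest p that 4 against 4 allows. For these 9 that test therefore restates the lack of overlap and adds nothing to it. The genes were chosen with earlier results of these data known, so the shares are descriptions.

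The direction was mixed. Of the 35 genes 22 lay below 0 and 13 above, with a median of -0.025 beside -0.0071 over all genes. The median size of the difference, sign aside, was 0.12 log2 units, beside 0.064 over all genes and 0.063 over genes above the dim limit. Their mean level over the whole group was 10.08 to 10.16 in wild-type and 10.09 to 10.17 in mutant animals, ranges that overlap almost fully. In whole tissue, fewer cells of a type and less RNA per cell cannot be told apart.

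**Figure D1:**
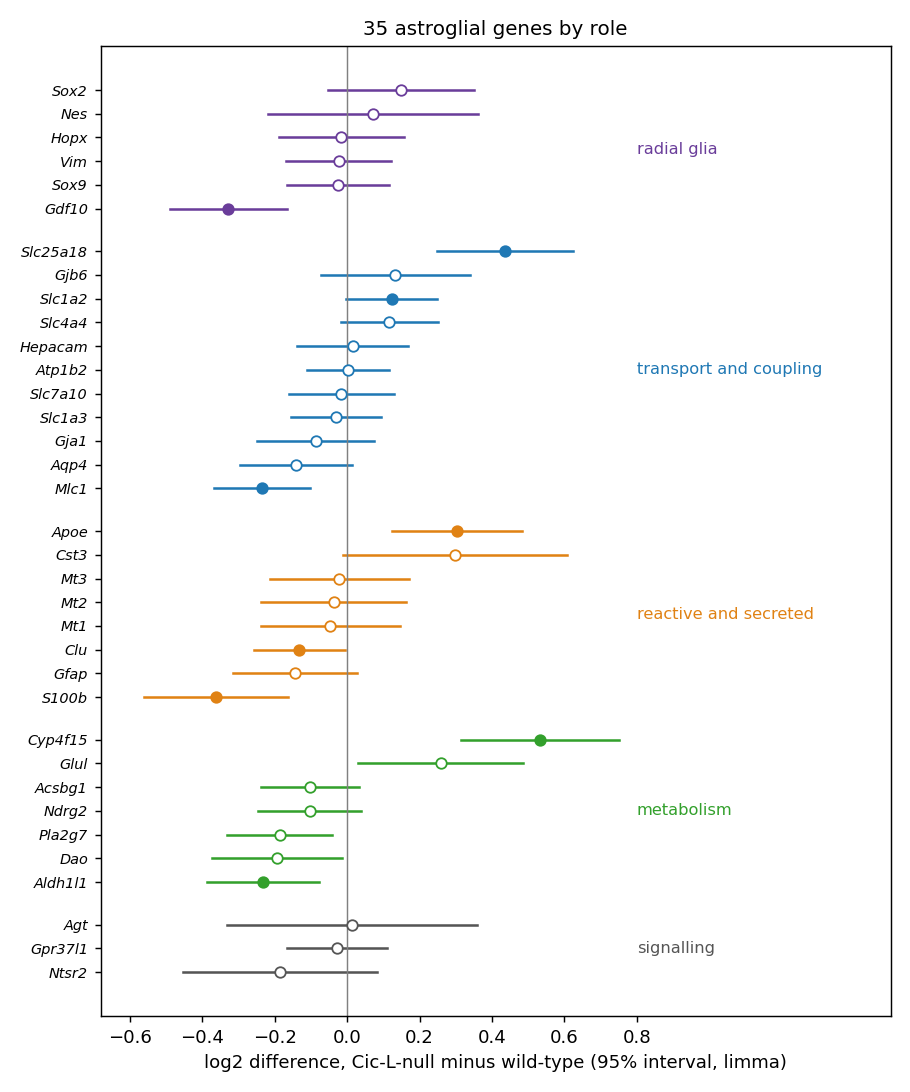
Differences of the 35 genes (x axis, log2, Cic-L-null minus wild-type) by role, with the 95% interval of limma as a line; filled points mark the 9 genes whose groups did not overlap. Cyp4f15 at 0.53 and Slc25a18 at 0.44 lie farthest to the right, S100b at -0.36 and Gdf10 at -0.33 farthest to the left.

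Calls among the 35 depended on the variance model and on single animals. With a trended and robust variance 4 genes were called, Cyp4f15 and Slc25a18 higher and Gdf10 and Mlc1 lower, where 130 of all genes (0.639%) were. Among genes above the dim limit 1 was called, Cyp4f15, with 69 of 14010 in all (0.493%). Without Cic-L-null replicate 3 there were 2, Cyp4f15 and Slc25a18, with 36 over all genes (0.177%). In simulations made from these gene values, limma recovered 5.3% of 200 genes shifted by 0.3 log2 units, 73.4% of those shifted by 0.5 and 97.7% of those shifted by 1. At 0.5 there were also 43 false calls over 5 simulations. All 200 genes were shifted by the same size in the same direction with independent noise. They were drawn at random from all 20352 genes, dim ones included. The median wild-type SD was 0.11 over all genes and 0.081 over the 35, so the recovery rates are not those of the 35. Recovery of changes of mixed size and direction was not tested.

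Of the 6 radial glia genes, Gdf10 alone had groups that did not overlap, and it was lower in mutants. Gdf10, a growth factor of the bone morphogenetic protein family that marks Bergmann glia, had log2 values of 10.43, 10.52, 10.30 and 10.55 in wild-type replicates 1 to 4 and of 10.12, 10.23, 10.02 and 10.11 in Cic-L-null replicates 1 to 4. Every mutant was below every wild-type animal. The difference was -0.33 (SE 0.073, adjusted p = 0.147 with limma), a mutant level of 0.797 times wild-type, and all 5 of its probe sets were lower, from -0.52 to -0.037, 4 of them with no overlap.

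The other 5 radial glia genes overlapped between the groups. Sox2, a transcription factor of neural stem cells that adult glia keep, had log2 values of 8.98, 8.85, 8.61 and 8.92 in wild-type and 9.12, 8.94, 8.84 and 9.05 in mutant replicates, a difference of 0.15 (SE 0.091) with a 95% interval from -0.054 to 0.35. It was 0.073 without wild-type replicate 3 and 0.094 with a Y-linked covariate. Sox9, the transcription factor that sets glial fate, differed by -0.025 (SE 0.063). Hopx, a homeodomain protein without DNA binding of its own, differed by -0.015 (SE 0.078) and Vim, the intermediate filament vimentin, by -0.024 (SE 0.066). Nes, the intermediate filament nestin of progenitors, differed by 0.071 (SE 0.13), with an interval from -0.22 to 0.36. The signs of Hopx, Vim and Nes turned when single animals were left out. The median over the 6 genes was -0.019, and it lay between -0.045 and 0.028 over the alternatives.

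Genes of transport and coupling split, with 6 above and 5 below 0 and a median of 0.0028, from -0.023 to 0.014 over the alternatives. Slc25a18, a mitochondrial carrier of glutamate, had log2 values of 8.78, 8.69, 8.77 and 8.62 in wild-type and 9.27, 9.16, 8.91 and 9.26 in Cic-L-null replicates. All mutants lay above all wild-type animals, and replicate 3 was the lowest of them. The difference was 0.44 (SE 0.085, adjusted p = 0.0923 with limma), or 1.35-fold, and all 10 of its probe sets were higher, by 0.23 to 0.58, 6 with no overlap.

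The glutamate carriers of the plasma membrane are those that clear the synapse. Slc1a2 (GLT-1), one of the main astrocytic glutamate transporters, had log2 values of 10.52, 10.52, 10.52 and 10.38 in wild-type and of 10.58, 10.64, 10.59 and 10.63 in mutant replicates. The groups did not overlap and differed by 0.12 (SE 0.057, adjusted p = 0.551 with limma), and 16 of 17 probe sets were higher. Slc1a3 (GLAST), the transporter that predominates in Bergmann glia, differed by -0.031 (SE 0.056), with a 95% interval from -0.16 to 0.093. Of its 12 probe sets 10 were lower, 3 of them with no overlap, whereas 1 probe set was higher by 0.41. The median of the 12 differences was -0.078, and with the median over probe sets as its value Slc1a3 differed by -0.10 (adjusted p = 0.795 with limma).

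Mlc1 was the lowest of the transport group. It encodes a membrane protein of astrocyte endfeet whose loss in people causes a leukoencephalopathy with cysts. Its log2 values were 11.07, 11.04, 11.001 and 11.18 in wild-type and 10.90, 10.80, 10.86 and 10.80 in Cic-L-null replicates, again with no overlap. The difference was -0.23 (SE 0.060, adjusted p = 0.211 with limma), and all 12 probe sets were lower, 7 with no overlap. Hepacam, whose protein GlialCAM binds MLC1 and brings it to cell junctions, differed by 0.015 (SE 0.069).

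Aqp4, the water channel of the endfeet, was lower in most of its probe sets. The log2 gene value was 9.27, 9.12, 9.02 and 9.11 in wild-type and 8.98, 9.10, 8.95 and 8.92 in mutant replicates; the groups overlapped and differed by -0.14 (SE 0.070, adjusted p = 0.59 with limma). Of 13 probe sets 10 were lower, 7 of them with no overlap, and the median of the 13 differences was -0.27. The 3 higher ones had wild-type means of 5.12, 6.05 and 8.01, and the first 2 of these lie below the dim limit, as do 2 of the 10 lower ones, both at 5.26. Taking the median over its probe sets, the gene differed by -0.26 (adjusted p = 0.381 with limma), and averaging only probe sets brighter than the dim limit, a setting chosen after the values were seen, gave -0.24 (adjusted p = 0.275 with limma). Aqp4 was followed here because its probe sets disagreed.

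The remaining coupling and ion transport genes differed by less than 0.14. Gja1 and Gjb6, connexins of astrocyte gap junctions, differed by -0.087 (SE 0.072) and 0.13 (SE 0.093), the latter at 0.051 without Cic-L-null replicate 2 and at -0.0088 with the median over probe sets. Slc4a4, a sodium bicarbonate cotransporter, differed by 0.12 (SE 0.060), with 22 of 25 probe sets higher and 4 of them with no overlap, and by 0.061 with the median over probe sets. Atp1b2, a subunit of the sodium pump, was at 0.0028 (SE 0.051), and its values over the 8 animals spanned 0.067 log2 units, the narrowest of the 35 genes. Slc7a10, which carries small neutral amino acids such as serine and glycine, differed by -0.016 (SE 0.066).

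Among genes of reactive astrocytes and secreted products, the groups did not overlap for Apoe, which was higher, or for S100b and Clu, which were lower. The median of the 8 was -0.042, from -0.095 to -0.0018 over the alternatives. S100b, a calcium-binding protein of astrocytes and Bergmann glia, had log2 values of 10.80, 10.74, 10.67 and 10.83 in wild-type and 10.49, 10.28, 10.61 and 10.22 in Cic-L-null replicates. No mutant reached the lowest wild-type animal, and mutant replicates 2 and 4 were lowest. The difference was -0.36 (SE 0.090, adjusted p = 0.192 with limma), a mutant level of 0.779 times wild-type, with all 3 probe sets lower by 0.30 to 0.42 log2 units.

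Oligodendrocytes also express S100b, and their markers were lower in the same animals. All 11 measured of 13 listed markers of mature oligodendrocytes lay below 0, with a median of -0.14. With limma 0 passed over all genes, and 3 had an unadjusted p under 0.05, all lower, beside 4.7% of all genes. Their mean log2 level was 9.98 to 10.12 in wild-type and 9.83 to 9.95 in mutant animals, with no overlap, and 0 of them lay below the dim limit on all arrays. The part of oligodendrocytes in the S100b values was not tested.

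Apoe, the lipid carrier that astrocytes secrete, had log2 values of 12.12, 12.09, 11.98 and 11.98 in wild-type and 12.28, 12.52, 12.17 and 12.42 in Cic-L-null replicates. The groups did not overlap, and mutant replicates 2 and 4 were highest. The difference was 0.30 (SE 0.081, adjusted p = 0.233 with limma), or 1.23-fold, and all 5 probe sets were higher, by 0.23 to 0.41. Apoe lies on chromosome 7 in the RefSeq gene table of GRCm38.p6, as do Cic and Slc7a10, whose difference was -0.016. Apoe and Slc7a10 are far apart there, with windows before a listed start at chr7:19698399-19698648 and chr7:35186135-35186384. The distance of each from Cic was not taken, so the value of Slc7a10 cannot stand for the chromosome near Apoe or Cic. The part of the chromosome around Cic in these values was not tested. Microglia also express Apoe, and the mean log2 level of 11 microglia markers was 7.16 to 7.18 in wild-type and 7.08 to 7.18 in mutant animals, with a median difference of -0.049 and 2 markers below the dim limit on all arrays.

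Clu, which encodes the extracellular chaperone clusterin, had log2 values of 11.18, 11.10, 11.11 and 11.03 in wild-type and 10.98, 10.92, 11.02 and 10.98 in mutant replicates. The gap between the groups was narrow, and the difference was -0.13 (SE 0.057, adjusted p = 0.508 with limma), with all 11 probe sets lower. With the median over probe sets it was -0.054 (adjusted p = 0.911 with limma). Gfap, the intermediate filament that reactive astrocytes raise, was at 9.06, 8.97, 9.004 and 8.86 in wild-type and 8.63, 8.90, 8.88 and 8.91 in mutant replicates, a difference of -0.14 (SE 0.077) with overlap, and of -0.077 without Cic-L-null replicate 1.

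The metallothioneins, small cysteine-rich proteins that bind zinc and copper, differed by less than the spread between animals. Mt1 differed by -0.047 (SE 0.087), Mt2 by -0.037 (SE 0.090) and Mt3, the form typical of brain, by -0.021 (SE 0.087). The 95% interval of Mt2 ran from -0.24 to 0.16. Of the 3, Mt2 ranged most widely among wild-type animals, from 10.93 to 11.37.

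Cst3, the secreted protease inhibitor cystatin C, had log2 values of 11.20, 11.12, 11.10 and 11.20 in wild-type and 11.14, 11.80, 11.68 and 11.18 in Cic-L-null replicates. Mutant replicates 2 and 3 stood apart from all other animals, and the difference was 0.30 (SE 0.14, adjusted p = 0.561 with limma). A single probe set carried this. Probe set 10488416 read 8.87, 8.60, 8.53 and 8.82 in wild-type and 8.62, 11.10, 11.48 and 8.66 in mutant replicates. The other 4 probe sets of Cst3 differed by 0.017 to 0.16, and without 10488416, left out after its values were seen, the gene differed by 0.058 (SE 0.064, adjusted p = 0.863 with limma).

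**Figure D2:**
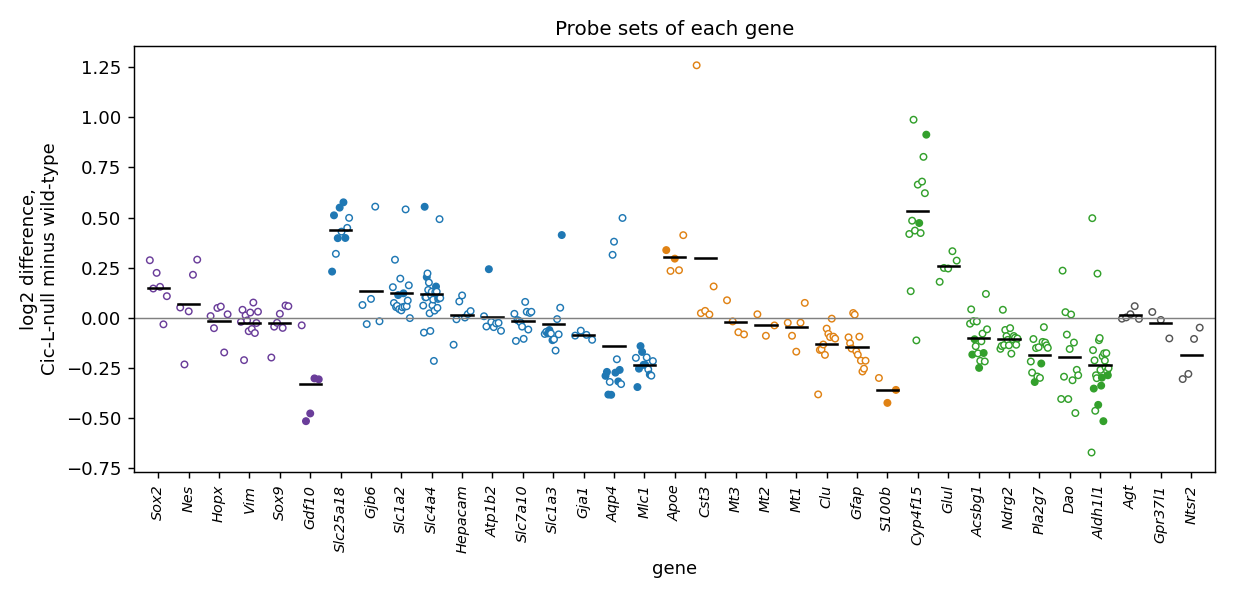
Each point is 1 of the 326 probe sets of the 35 genes (y axis, log2 difference, Cic-L-null minus wild-type), coloured by role and filled where the groups did not overlap; black bars are the gene values. One Cst3 probe set lies at 1.26 far above the other 4, and the Aqp4 points split into 10 from -0.38 to -0.21 and 3 from 0.31 to 0.50.

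Over the 326 probe sets, 53 (16.3%) had groups that did not overlap, against 4.38% of the 212097 probe sets that carry 1 gene symbol. They were 18 higher (2.44% of those probe sets) and 35 lower (1.94%). Probe sets of a gene read the same RNA and are not independent. In the limma fit over all 241576 probe sets, where 1 passed (0.000414%), 0 of the 326 did, and the smallest adjusted p among them was 0.347.

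In the metabolic group Cyp4f15 and Glul were higher and the other 5 genes lower, with a median of -0.10. Cyp4f15, a cytochrome P450 of the family that hydroxylates fatty acids and eicosanoids, had log2 values of 6.47, 6.64, 6.50 and 6.56 in wild-type and 7.10, 7.31, 6.80 and 7.08 in Cic-L-null replicates. Every mutant was above every wild-type animal, and replicate 3 was again the lowest mutant. The difference, 0.53 (SE 0.098, adjusted p = 0.0766 with limma), or 1.45-fold, was the largest of the 35 genes. Of its 13 probe sets 12 were higher, 2 of them with no overlap. The brightest probe set, with a wild-type mean of 8.85, differed by -0.11. The next, at 8.21 and 7.88, differed by 0.13 and 0.47. The largest differences, 0.99 and 0.91, came from probe sets at 5.04 and 5.76, below the dim limit of 6.21. The wild-type mean of the gene, 6.54, lies close to that limit.

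Glul, the glutamine synthetase that turns glutamate taken up by astrocytes into glutamine, had log2 values of 11.45, 11.62, 11.62 and 11.48 in wild-type and 11.67, 11.96, 11.55 and 12.01 in mutant replicates. Mutant replicate 3 lay among the wild-type values and the other 3 above all of them, replicates 2 and 4 by the most. The difference was 0.26 (SE 0.10, adjusted p = 0.459 with limma), with all 5 probe sets higher.

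Aldh1l1, the folate enzyme widely used as a marker of all astrocytes, went the other way. Its log2 values were 8.81, 8.71, 8.75 and 8.83 in wild-type and 8.68, 8.52, 8.39 and 8.57 in Cic-L-null replicates, with no overlap. The difference was -0.23 (SE 0.070, adjusted p = 0.288 with limma), and 22 of 24 probe sets were lower.

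Pla2g7, the secreted enzyme that inactivates platelet-activating factor, was at 11.31, 11.23, 11.11 and 11.19 in wild-type and 11.01, 11.03, 11.12 and 10.93 in mutant replicates. The difference was -0.19 (SE 0.065, adjusted p = 0.378 with limma), with all 14 probe sets lower but the groups overlapping through mutant replicate 3. Dao, D-amino acid oxidase, which degrades D-serine in cerebellar astrocytes, was at 8.61, 8.83, 8.47 and 8.57 in wild-type and 8.34, 8.53, 8.44 and 8.38 in mutant replicates, and the means differed by -0.19 (SE 0.081, adjusted p = 0.491 with limma), with overlap through mutant replicate 2. Without wild-type replicate 2 Dao differed by -0.12. Ndrg2, a protein of the N-myc downstream regulated family, and Acsbg1, an acyl-CoA synthetase for long fatty acids, each differed by -0.10 (SE 0.064 and 0.061), Ndrg2 by -0.17 with the median over probe sets.

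**Figure D3:**
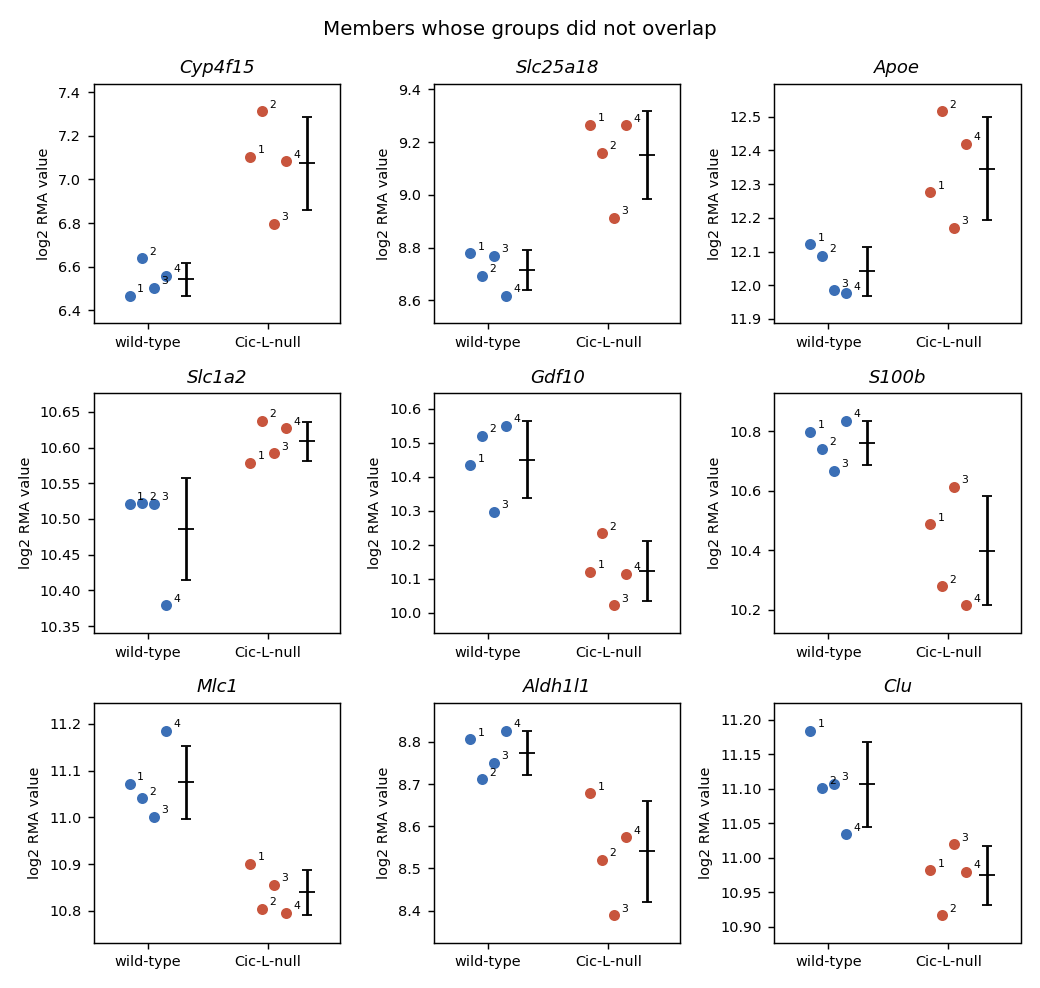
Log2 values of the 9 genes whose groups did not overlap, 1 panel each with its own y axis; points are animals, numbered by replicate, and bars show the mean and SD of 4. Slc25a18 in Cic-L-null replicate 3 (8.91) lies nearest to wild-type, and S100b is lowest in Cic-L-null replicates 2 and 4.

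The 3 signalling genes had overlapping groups. Ntsr2, a neurotensin receptor of astrocytes, had log2 values of 9.87, 9.54, 9.74 and 9.56 in wild-type and 9.49, 9.41, 9.82 and 9.25 in Cic-L-null replicates, a difference of -0.18 (SE 0.12) that came to -0.29 if Cic-L-null replicate 3 was left out and to -0.10 if Cic-L-null replicate 4 was. Gpr37l1, a receptor of Bergmann glia that resembles endothelin receptors, was at 11.34, 11.28, 11.24 and 11.26 in wild-type and 11.30, 11.29, 11.30 and 11.11 in mutants, a difference of -0.028 (SE 0.063).

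Agt, the angiotensin precursor that astrocytes make in brain, had the same mean in both groups within its error but not the same spread, and was named for this after its values were seen. Its log2 values were 10.58, 10.60, 10.53 and 10.53 in wild-type and 10.34, 11.03, 10.18 and 10.75 in Cic-L-null replicates. Mutant replicates 2 and 4 lay above all wild-type animals and replicates 1 and 3 below all of them. The difference was 0.014 (SE 0.16), the SD was 0.034 in wild-type and 0.39 in mutants, and a ratio of SDs of that size or more was found in 0.103% of all genes. All 5 Agt probe sets had a mean difference within 0.06 of 0.

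**Figure D4:**
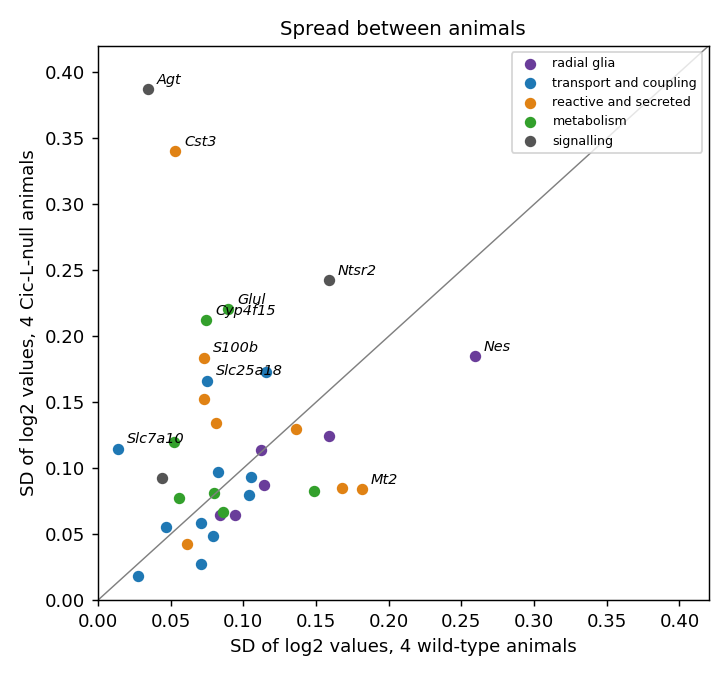
SD of the log2 values over the 4 wild-type animals (x axis) and the 4 Cic-L-null animals (y axis), 1 point per gene, coloured by role; the line marks equal spread. Agt (0.034 and 0.39) and Cst3 (0.053 and 0.34) lie far above the line, and Mt2 (0.18 and 0.084) below it.

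The mutant SD exceeded the wild-type SD in 18 of the 35 genes, beside 40.8% of all genes, and its median was 0.093 in mutants and 0.081 in wild-type. Slc7a10, another gene named after its values were seen, ranged from 9.54 to 9.57 in wild-type and from 9.41 to 9.63 in mutants, SDs that differ 8.27 times. Its SDs were 0.014 and 0.11, where the medians over all genes were 0.11 in wild-type and 0.095 in mutants. The ratio thus came from an unusually narrow wild-type group, and 0.236% of all genes had one as large. The mutant SD was also 6.37 times the wild-type SD in Cst3, 2.85 times in Cyp4f15, 2.51 times in S100b and 2.46 times in Glul. Ratios as large or larger were found in 0.482%, 4.3%, 6.34% and 6.71% of all genes.

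**Figure D5:**
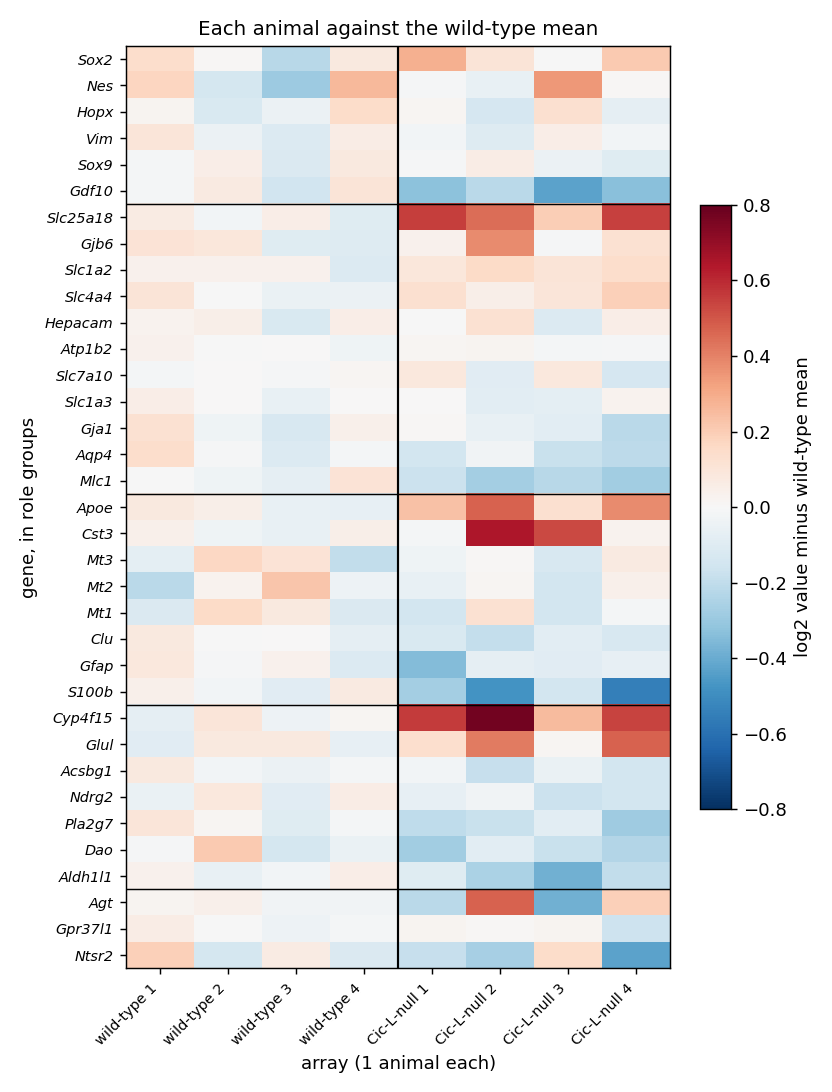
Each cell is 1 gene in 1 animal, as log2 value minus the wild-type mean of that gene, with red for higher and blue for lower; lines separate the groups and the 5 roles. Cyp4f15 and Slc25a18 are red in all 4 Cic-L-null columns, Gdf10, Mlc1 and S100b blue in all 4, and Agt is red in replicates 2 and 4 and blue in 1 and 3.

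The promoters of the genes were searched for the octamers that Capicua binds. RefSeq windows of GRCm38.p6 were found for 31 of the 35 genes, 39 windows in all, and the 250 bases before the listed start were searched on both strands for TGAATGAA, TGAATGGA, TCAATGAA and TCAATGGA. A match stood in 1 of the 39 windows (2.56%) and in 3.19% of all 32851 windows of that length. The match was in Acsbg1, whose gene value differed by -0.10, and it ended 18 bases before the start. No window of Gdf10, S100b, Cyp4f15, Slc25a18, Mlc1 or Apoe held the letters. Of the 39 windows 18 lay outside the RefSeq record of their gene. The windows of Cyp4f15, Slc25a18, Mlc1 and Apoe overlapped that record, and those of Gdf10 and S100b did not. A match is no proof of a site, and no match says only that these letters are not in this window. The Acsbg1 window is shown for its octamer, in capitals, and the windows of the lower genes Gdf10 and S100b for comparison, all 5′ to 3′ on the strand of the gene: Acsbg1 at chr9:54661886-54662135 (minus strand), Gdf10 at chr14:33923337-33923586 (plus strand) and S100b at chr10:76253586-76253835 (plus strand).
Acsbg1: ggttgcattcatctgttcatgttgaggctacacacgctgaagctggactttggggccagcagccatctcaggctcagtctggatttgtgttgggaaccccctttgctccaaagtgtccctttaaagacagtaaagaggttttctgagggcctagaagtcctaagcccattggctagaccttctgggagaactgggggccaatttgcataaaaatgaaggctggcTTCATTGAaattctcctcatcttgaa
Gdf10: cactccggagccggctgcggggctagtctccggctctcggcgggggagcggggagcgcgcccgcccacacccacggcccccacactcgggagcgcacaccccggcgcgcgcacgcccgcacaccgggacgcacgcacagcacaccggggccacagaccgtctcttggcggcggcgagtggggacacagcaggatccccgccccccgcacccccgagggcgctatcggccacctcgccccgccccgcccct
S100b: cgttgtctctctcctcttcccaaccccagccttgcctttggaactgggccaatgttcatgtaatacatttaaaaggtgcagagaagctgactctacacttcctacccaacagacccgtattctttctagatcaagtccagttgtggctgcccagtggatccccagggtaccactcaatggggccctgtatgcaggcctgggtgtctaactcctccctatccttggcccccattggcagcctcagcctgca

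The promoters of Mt1 and Mt2 are known for their control by metals. Metal response elements, the sites of the zinc-sensing factor MTF1, share the core TGCACNC or TGCGCNC, and a match on either strand stood in 9 of the 39 windows (23.1%) and in 21.4% of all windows. The Mt2 window at chr8:94172368-94172617 (plus strand) held 3 matches, marked in capitals, a number reached or passed by 1.26% of all windows. The Mt1 window held 1 match and that of Mt3 held 0. The Mt1 window overlapped the RefSeq record of its gene, and those of Mt2 and Mt3 did not. Sequence beyond each window was not searched, so the Mt1 count holds for the window before that listed start and not for its whole promoter.
Mt2: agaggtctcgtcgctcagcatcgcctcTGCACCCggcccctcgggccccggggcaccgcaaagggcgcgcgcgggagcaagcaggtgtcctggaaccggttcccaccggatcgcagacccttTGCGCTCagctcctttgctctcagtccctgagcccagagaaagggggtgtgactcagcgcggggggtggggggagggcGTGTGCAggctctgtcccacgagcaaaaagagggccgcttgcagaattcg

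Of 40 other astroglial genes listed, 39 were measured, 17 above and 22 below 0. At an unadjusted p under 0.05 there were 8 lower and 1 higher, beside 4.7% and 4.56% of all genes. With limma 1 passed over all genes (0.138% of all genes did). Fabp7, which binds brain lipids in radial and Bergmann glia, fell by 1.17 (SE 0.14, adjusted p = 0.018 with limma), from 10.39 ± 0.27 to 9.22 ± 0.21 (SD, n = 4). The limma call ended when 1 of 3 animals was left out, wild-type replicate 2 (adjusted p = 0.0682), Cic-L-null replicate 2 (adjusted p = 0.0592) or Cic-L-null replicate 4 (adjusted p = 0.0564). It also ended with the median over probe sets (adjusted p = 0.0514 with limma) and under the replicate block (adjusted p = 0.0772 with limma), within a range over all alternatives of 0.0105 to 0.0772.

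The next genes of that list did not pass. Mfge8, a secreted bridge for the uptake of dying cells, differed by -0.46 (SE 0.083, adjusted p = 0.0753 with limma), and Wif1, a secreted Wnt inhibitor of Bergmann glia, by -0.66 (SE 0.13, adjusted p = 0.0861 with limma). Itih3, a serum protein family member that astrocytes express, differed by 0.57 (SE 0.13). The median of the list was -0.014.

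Genes that reactive astrocytes raise gave 0 calls with limma among 31 measured of 32 listed, with 15 above and 16 below 0, a median of -0.0012 and 4 at an unadjusted p under 0.05, all higher, beside 4.56% of all genes. These were Serping1, the C1 inhibitor of complement, at 0.40 (SE 0.10), Cp, the copper oxidase ceruloplasmin, at 0.35 (SE 0.12), Osmr, the oncostatin M receptor, at 0.22 (SE 0.076), and Lcn2, lipocalin-2, at 0.36 (SE 0.13). With the median over probe sets Serping1 was at 0.084 and Osmr at 0.077, and without Cic-L-null replicate 2 Lcn2 was at 0.22. Of the 31 genes 10 lay below the dim limit on all arrays. Osmr and Lcn2 had wild-type means of 6.12 and 5.59, below that limit.

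Sonic hedgehog from Purkinje cells signals to Bergmann glia. Of 11 measured of 12 hedgehog pathway genes 0 were called with limma, 3 had an unadjusted p under 0.05, beside 9.26% of all genes, and the median was 0.017. Ptch1, the hedgehog receptor and a target of the pathway, differed by 0.17 (SE 0.069), Sufu, an inhibitor of GLI factors, by 0.21 (SE 0.083), and Gas1, a coreceptor, by -0.26 (SE 0.091). With the median over probe sets Gas1 differed by -0.10 and with only probe sets above the dim limit by -0.080.

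Markers of other cells in the tissue were read beside these results, and with limma 0 of them passed over all genes. An unadjusted p under 0.05 with limma was reached by 9.26% of all genes. Among the markers it was reached by 1 of 12 for granule cells, 2 of 10 for oligodendrocyte precursors and 1 of 11 for microglia. For vessels it was 3 of 12, for choroid plexus and ependyma 1 of 12, for meninges 3 of 10 and for Purkinje cells 0 of 10. The mean log2 level of 10 Purkinje cell markers was 10.20 to 10.41 in wild-type and 10.25 to 10.32 in mutant animals, and that of 12 granule cell markers 11.08 to 11.20 and 11.15 to 11.24, with medians of 0.026 and 0.071. For 10 oligodendrocyte precursor markers the median was -0.029. Endothelial and pericyte markers (12 genes) ran from 8.09 to 8.27 and from 8.01 to 8.21, with a median of -0.069. Choroid plexus and ependymal markers, of interest because ependyma shares Vim, S100b and Sox2, ran from 7.36 to 7.73 in wild-type and from 7.06 to 7.72 in mutants, with a median of -0.050 and the lowest level in Cic-L-null replicate 3. Meningeal markers ran from 7.67 to 7.83 and from 7.71 to 7.86, with a median of -0.062. The part of these cells in the astroglial values was not tested.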

How the data were processed

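The deposited table holds log2 values for 241576 probe sets on 8 arrays, which the authors made by RMA. Per the submitters' processing notes, the program was Affymetrix Power Tools. Its version and the genome build were not given in the sources used here. RMA equalises the arrays, so changes are relative to the whole. Groups and replicate numbers came from the titles. The p-values of limma set the difference between the groups against the spread between the animals of a group. In that test the variance of each gene is drawn towards a common value estimated from all genes. Probe sets with 1 symbol in the platform annotation (212097) were averaged per gene after symbols were updated through the RefSeq table of GRCm38.p6, which gave 20352 genes. The comparison of groups used lmFit and eBayes of limma (version 3.58.1, under R 4.3.3), checked on simulated data, with group as the only term, no variance trend, no filter and Benjamini-Hochberg adjustment over all genes at 0.05. The members, role groups and lists were chosen with earlier results of these data known. Array values are given for members with an unadjusted p under 0.05, for the 2 largest differences in each role, and for genes marked as named after their values were seen or whose groups did not overlap. Up to 4 genes with an unadjusted p under 0.05 are named per pathway list. Alternatives changed how probe sets were combined, the filter, the normalisation, the variance model, covariates, the block, the threshold and the animals.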

Additional observations from a re-analysis of the deposited data

Results flagged for a closer look

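In 4 of 70 groups of 4 animals checked, 1 value stood far from the rest by Dixon's ratio of gap to range, which chance alone gives in about 1 of 20 groups (5%). In wild-type, Slc1a2 of replicate 4 was at 10.38 with the others at 10.52 (ratio 0.994). Hepacam of wild-type replicate 3 was at 9.64, where the next was 9.79 (ratio 0.845). In mutants, Gfap of replicate 1 was at 8.63, where the next was 8.88 (ratio 0.917). Gpr37l1 of mutant replicate 4 was at 11.11, where the next was 11.29 (ratio 0.929).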

How the results depend on the processing

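The count over all genes, 28, was 2 with the median of probe sets, 69 among genes above the dim limit, 130 with a trended and robust variance, 54 with array weights, 0 with the replicate block, 18 with a Y-linked covariate and 96 at an adjusted p under 0.10. With each animal left out it ran from 0 to 37, the lowest without Cic-L-null replicate 2 and the highest without wild-type replicate 1. At an unadjusted p under 0.05 it was 1885. For the 35 genes the count, 0, was 1 above the dim limit, 4 with a trended and robust variance, 2 at an adjusted p under 0.10, 5 with the dim limit and that variance together (chosen after seeing the data), and 0 to 2 with animals left out. For other astroglial genes the count, 1, was 0 with the median of probe sets and with the replicate block, 2 above the dim limit, 4 with a trended and robust variance, 3 at an adjusted p under 0.10 and 0 to 1 with animals left out. With animals left out the median of the signalling genes ran from -0.14 (without Cic-L-null replicate 2) to -0.0073. The median of the radial glia genes turned positive without wild-type replicate 4 (0.016), Cic-L-null replicate 2 (0.013) or 4 (0.0011) and with the median of probe sets (0.028). That of the transport genes ran from -0.019 to 0.014 with animals left out and was -0.023 with the median of probe sets.

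Of the 35 genes 23 kept their sign under the alternatives run, and 12 changed it in at least 1, where the smallest adjusted p by limma was 0.810. With the median of probe sets Hopx was at 0.053, Vim at 0.0043, Atp1b2 at -0.023, Gjb6 at -0.0088 and Agt at -0.00090. With the Y-linked covariate Atp1b2 was at -0.00056, Hepacam at -0.015, Mt3 at 0.0027 and Agt at -0.045, and with array weights Hepacam was at -0.0100 and Agt at -0.019. With animals left out the ranges were -0.064 to 0.033 for Hopx, -0.060 to 0.0086 for Vim, -0.027 to 0.16 for Nes, -0.049 to 0.025 for Slc7a10 and -0.0079 to 0.014 for Atp1b2. They were -0.026 to 0.056 for Hepacam, -0.10 to 0.0033 for Mt1, -0.11 to 0.038 for Mt2, -0.087 to 0.034 for Mt3, -0.14 to 0.15 for Agt and -0.045 to 0.018 for Gpr37l1. The causes were not tested. Outside the 35, Mfge8, Wif1, Timp4 and Gria1 passed limma's threshold under at least 1 alternative, with smallest adjusted p of 0.0108, 0.02, 0.0266 and 0.0482 against largest of 0.251, 0.267, 0.637 and 0.534.

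Same-numbered animals of the 2 groups correlated in their deviations at 0.219, 0, 0.207 and 0.026. Animals with different numbers correlated at -0.227 to 0.125, so 0.219 and 0.207 exceeded every one of these. Replicates 1, 3 and 4 also shared their sex-linked level across the groups, and replicate 2 did not. Different-numbered animals correlated at -0.127 to 0.125 where they shared that level and at -0.227 to 0.11 where they did not. The part of sex in these correlations was not tested. Whether the numbers pair the animals was not settled, and the main comparison did not pair them. The block left 0 calls over all genes and 0 among the 35. Signal over background limits Nes and Cyp4f15, which lie near the dim limit.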

Other observations

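Some further astroglial genes outside the 35, named after their values were seen, were lower in mutants without passing the test. They were picked from the 39 measured genes of the other astroglial list. Of that list 17 genes lay above 0 and 22 below, with a median of -0.014 and the highest at 0.57, so the 4 do not stand for the list. Bergmann glia carry AMPA receptors built from the products of Gria1 and Gria4, which neurons also use. Gria1 averaged 11.33 ± 0.089 in wild-type and 11.06 ± 0.11 in mutant animals (SD, n = 4) and so differed by -0.27 (SE 0.073, adjusted p = 0.254 with limma). Gria4 averaged 11.80 ± 0.053 and 11.64 ± 0.085 (SD, n = 4) and differed by -0.17 (SE 0.062, adjusted p = 0.419 with limma). Timp4, an inhibitor of matrix metalloproteinases, differed by -0.26 (SE 0.063, adjusted p = 0.185 with limma). A2m, a broad protease trap, differed by -0.57 (SE 0.15, adjusted p = 0.211 with limma), and its groups overlapped, unlike those of the other 3. None of these 4 passed over all genes.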
